A study of Mus musculus with 4 samples.

Results

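Endothelial cells line brain vessels and pericytes wrap around them, and 10 genes that mark these cells were followed in the DNA of hippocampal microglia. The endothelial genes were Pecam1, Cldn5, Cdh5, Kdr, Flt1, Tek and Tie1, and the pericyte genes were Pdgfrb, Rgs5 and Vtn. They were chosen as markers of vascular cells, and each was taken as its RefSeq span in GRCm38.p6, the assembly of mm10, extended by 5000 bp on each side. They are 10 of 33069 autosomal protein-coding and lncRNA genes, of which 32609 were measured in every library. DNA methylation had been measured by whole-genome bisulfite sequencing, which reads methylated cytosines as C and unmethylated ones as T. The mice had fetal growth restriction (FGR, 2 libraries) or were controls (2 libraries). All were Tmem119-tdTomato+/- mice, in which the fluorescent protein tdTomato reports on a gene of microglia, at 3 weeks after birth. The sources used here do not give how growth was restricted, how the cells were collected, or whether a library is 1 animal or a pool. The tests therefore measure only the spread between these libraries, which may be technical.

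In vertebrate DNA, methylation sits mostly on CpG sites, and gene bodies are usually methylated while active promoters and enhancers are not. A cell type therefore tends to carry unmethylated stretches at its own genes and methylated ones at the enhancers of other lineages. CpG-rich promoters are often unmethylated in all cell types, whether or not the gene is used. Endothelial cells form the blood-brain barrier with tight and adherens junctions, grow under the control of VEGF and angiopoietins, and recruit pericytes with PDGF-B. FGR was compared with control mice to see what poor growth in the womb goes with in microglial DNA, and the vascular genes also serve as a check on the identity of the cells.

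Because promoters with many CpGs and promoters with few behave differently, 4 of the 7 promoters matched in the RefSeq table are shown, 2 of them CpG-rich and 2 with fewer CpGs. Each is the 250 bases before the gene start, 5′ to 3′ on the gene's strand in GRCm38.p6, with CpG sites in capitals. They are Flt1 at chr5:147726012-147726261 on the minus strand, Kdr at chr5:75978456-75978705 on the minus strand, Cldn5 at chr16:18776597-18776846 on the plus strand and Tek at chr4:94739039-94739288 on the plus strand. The promoter table places the starts of Flt1, Kdr and Tek slightly inside the gene spans given with each gene, and gene starts are taken from it throughout.
Flt1: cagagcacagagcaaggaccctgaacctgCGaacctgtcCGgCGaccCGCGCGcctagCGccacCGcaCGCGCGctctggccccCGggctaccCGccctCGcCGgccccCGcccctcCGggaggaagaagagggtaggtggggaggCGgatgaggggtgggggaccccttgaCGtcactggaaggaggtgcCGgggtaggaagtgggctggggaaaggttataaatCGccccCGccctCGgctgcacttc
Kdr: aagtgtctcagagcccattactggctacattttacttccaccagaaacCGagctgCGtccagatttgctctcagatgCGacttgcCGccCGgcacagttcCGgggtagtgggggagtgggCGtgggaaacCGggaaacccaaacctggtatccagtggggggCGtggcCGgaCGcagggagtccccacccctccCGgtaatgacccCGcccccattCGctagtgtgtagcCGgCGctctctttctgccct
Cldn5: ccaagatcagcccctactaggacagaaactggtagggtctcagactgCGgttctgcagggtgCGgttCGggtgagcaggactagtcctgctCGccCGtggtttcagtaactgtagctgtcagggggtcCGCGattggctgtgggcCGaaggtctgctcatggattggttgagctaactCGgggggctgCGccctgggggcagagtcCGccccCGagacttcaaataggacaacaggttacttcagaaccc
Tek: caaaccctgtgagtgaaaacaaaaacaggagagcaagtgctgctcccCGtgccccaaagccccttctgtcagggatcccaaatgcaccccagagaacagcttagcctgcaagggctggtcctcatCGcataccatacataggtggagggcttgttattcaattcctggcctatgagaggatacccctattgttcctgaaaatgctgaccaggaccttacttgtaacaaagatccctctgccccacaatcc
These stretches hold 23 CpGs in Flt1, 16 in Kdr, 12 in Cldn5 and 2 in Tek. Counted from 250 bases before to 50 after the start, Flt1 had 29 CpGs, Kdr 19, Cldn5 12, Vtn 9, Tie1 7, Rgs5 6 and Tek 3. The median of 25748 promoters was 7. The ETS motif CGGAAG, searched on both strands, was found in 1 of the 7 promoters (Tie1) and in 17.3% of all promoters. AGGAAG, which differs from it in the first letter, so that 1 site cannot be both, was found in 2 of the 7 (Flt1 and Tie1) and in 34.7% of all.

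The libraries listed between 7615146 and 13578464 cytosines, with a summed coverage of 49563150 and 91762720 reads in FGR replicates 1 and 2, against 62202250 and 66971740 in control replicates 1 and 2. No listed cytosine had fewer than 5 reads, so which CpGs are listed depends on depth. Within the 10 spans 6042 CpGs were listed at least once, 3092 of them in both groups and 343 (5.68%) in all 4 libraries. The autosomal level, methylated reads over all reads, was 74.6% and 75.6% in the FGR libraries and 76.0% and 76.4% in the controls. In a bulk library, a mixture of methylated and unmethylated cells and partial methylation in every cell give the same level.

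The vascular genes were methylated in these cells, whereas the genes of microglia were not to the same degree. The mean level of the 4 libraries over a gene and its flanks had a median of 79.6% over the 10 vascular genes, with a range from 61.3% to 82.8%. The median over all 32609 genes was 74.6%. The 11 microglial genes used for contrast, among them Cx3cr1, Csf1r and P2ry12, had a median of 52.4% over the 10 on autosomes, with a range from 26.3% to 66.9%. All 10 lay below the median of all genes and 6 lay below the 10th percentile, 58.8%. Of the vascular genes 3 of 10 (Cldn5, Rgs5 and Vtn) lay below the median and 0 below the 10th percentile. Cldn5 and Vtn lay within the range of the microglial genes. Their extended spans, 11.4 and 13.2 kb, were the shortest of the 10, so the start makes up more of them. Whether this goes with their lower levels was not tested. The flank of Vtn further than 1500 bp before its start had 53.7% and 55.0% in FGR libraries, against 64.6% and 38.3% in controls. Cx3cr1, the fractalkine receptor of microglia, had 25.7% and 22.4% in FGR libraries against 28.8% and 28.2% in controls. In each library it lay below each of the 10 vascular genes. At CpGs listed in all 4 libraries the contrast was smaller, with medians of 81.7% over 9 vascular genes, 67.1% over 9 microglial genes and 79.9% over all 29996 genes. There 4 of 9 vascular genes lay below the median of all genes, and 3 of 9 microglial genes below their 10th percentile, 60.6%. Over all listed CpGs, the wider lists gave medians of 73.2% over 41 endothelial genes and 72.5% over 29 genes of pericytes and the vessel wall. Of these, 23 of the 41 and 17 of the 29 lay below the median of all genes.

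**Figure D1:**
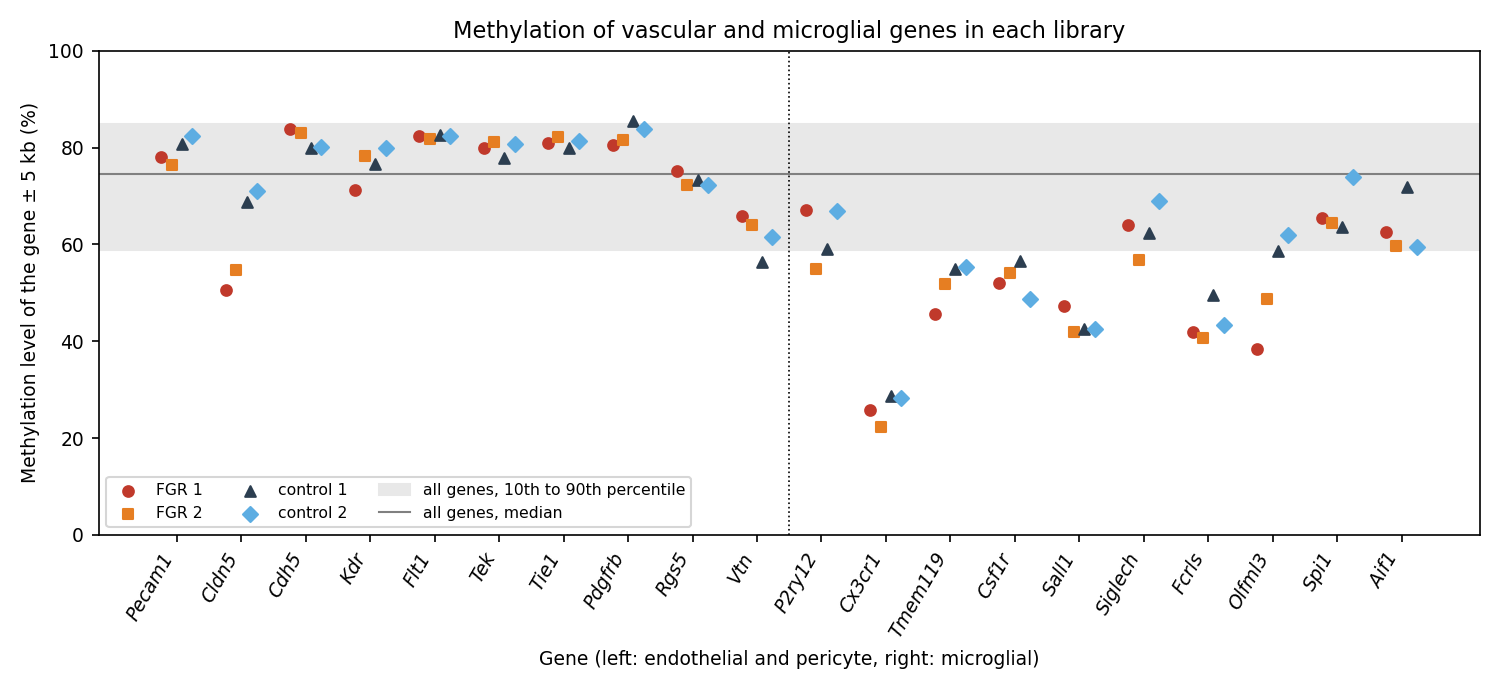
Methylation level (percent, y axis) of each gene with 5 kb on each side, for the 10 vascular genes on the left and 10 microglial genes on the right of the dotted line. Points are the 4 libraries, the grey band spans the 10th to 90th percentile of all genes (58.8% to 84.9%) and the line is their median, 74.6%. Most vascular genes sit above the line, while all but Spi1 and Aif1 of the microglial genes have every library below 70%.

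The same contrast held in windows of 1 kb. A window counted as measured where at least 1 library of each group had 3 CpGs and 10 reads in it, and as low where every library that measured it was under 20%. This rule was set after the profiles had been seen, and it is used as a description only. Of 482 windows along the vascular genes 9 (1.87%) were low and 233 (48.3%) were above 80% throughout. Along the microglial genes 39 of 210 windows (18.6%) were low and 38 (18.1%) high. Over all 1440339 autosomal windows 1.32% were low and 31.6% high. Cx3cr1 alone had 7 low windows of 18 and P2ry12, a purinergic receptor gene of microglia, 9 of 45. The 9 low windows of the vascular genes lay in Flt1 (3), Pecam1 (2), Cdh5, Kdr, Rgs5 and Vtn (1 each), and Cldn5, Tek, Tie1 and Pdgfrb had none.

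**Figure D2:**
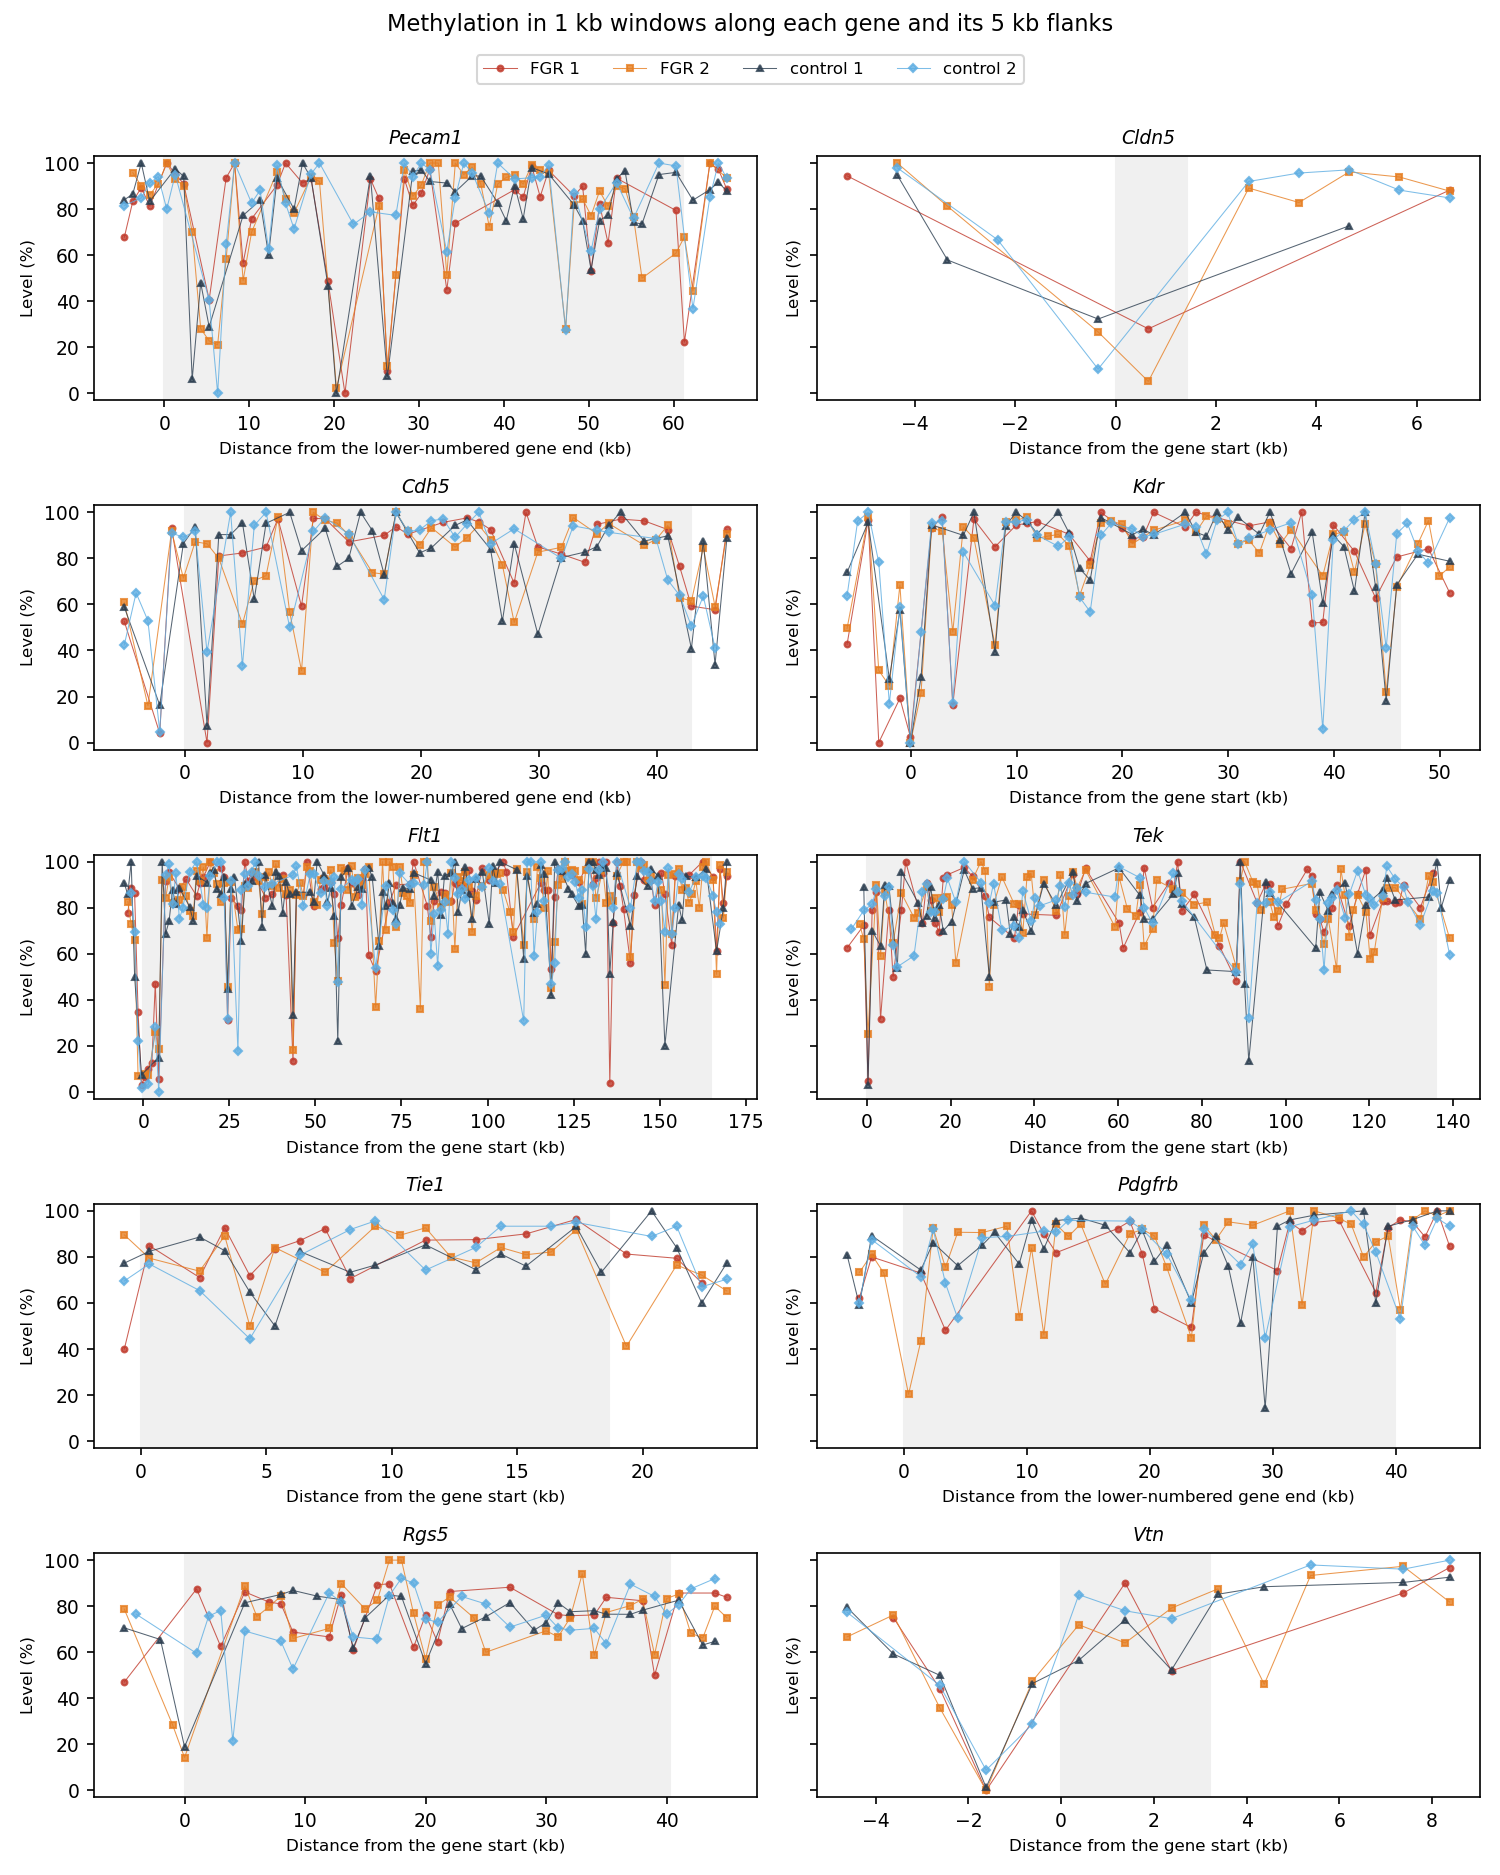
Methylation level (percent, y axis) in 1 kb windows along each vascular gene, against the distance in kb from the gene start, or from the lower-numbered gene end for Pecam1, Cdh5 and Pdgfrb. Grey marks the length of the gene, and a point needs 3 CpGs and 10 reads in its library. Many windows lie between 80% and 100%, though fewer in Rgs5, Tie1, Vtn and Tek. Among the dips are those at the starts of Flt1, Kdr, Cldn5, Rgs5 and Tek, inside Pecam1, before Vtn and outside the lower-numbered end of Cdh5.

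Pecam1 encodes an adhesion receptor of endothelial cell contacts that platelets and some leukocytes also carry. It lies on chromosome 11 from 106654213 to 106715281, and its extended span had 78.0% and 76.5% in FGR libraries against 80.8% and 82.3% in controls. Both FGR libraries were below both controls, and the means of 77.2 ± 1.07% in FGR libraries and 81.5 ± 1.08% in controls (SD, n = 2 each) differed by -4.32 points. Inside the gene a window from 106680001 to 106681000, 26.3 kb from the lower-numbered end, had 9.88% of 81 reads and 11.7% of 111 reads methylated in FGR libraries 1 and 2, against 7.32% of 41 reads in control 1. Another from 106674001 to 106675000 had 2.27% of 44 reads in FGR 2 and 0% of 25 reads in control 1. The lowest window measured in all 4 libraries, from 106659001 to 106660000, had 40.6% and 22.8% in FGR libraries against 28.9% and 40.5% in controls. The 1 kb before the window at 26.3 kb had 84.6% and 81.3% in FGR libraries 1 and 2, so this dip in the body of the gene ended on that side. The end at 106715281 had 35.7% and 52.6% in FGR libraries against 83.9% and 50% in controls, so the groups overlapped.

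Cdh5 encodes VE-cadherin, the cadherin of endothelial adherens junctions, on chromosome 8 from 104101613 to 104144504. Its span had 83.8% and 82.9% in FGR libraries against 79.9% and 80.2% in controls, and both FGR libraries were above both controls. The lower-numbered end was highly methylated, with 92.0% and 84.7% in FGR libraries against 87.2% and 88.8% in controls. The lowest window measured in all 4 libraries, from 104103001 to 104104000, lay 1.89 kb inside this end. It had 0% of 16 reads and 86.4% of 22 in FGR libraries, against 7.41% of 27 and 39.3% of 28 in controls, so the libraries lay far apart. The higher-numbered end had 52.3% and 65.5% in FGR libraries against 58.1% and 53.3% in controls. A low window lay 2.11 kb outside the lower-numbered end, from 104099001 to 104100000, with 4% of 25 reads in FGR 1, against 16.3% and 4.65% of 43 reads each in controls 1 and 2. The next window towards the gene had 93.3% and 91.8% in FGR libraries and 91.0% in control 2, so the dip ended on that side. The whole 5000 bp outside this end had 52.5% and 67.9% in FGR libraries against 63.8% and 63.2% in controls.

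Cldn5 encodes claudin 5, the main tight-junction protein of brain endothelium, and is a short gene on chromosome 16 from 18776847 to 18778262. Its span had 50.6% and 54.8% in FGR libraries against 68.7% and 71.1% in controls, the lowest percentile of the 10 genes at 12.9. The means, 52.7 ± 2.94% in FGR libraries and 69.9 ± 1.68% in controls (SD, n = 2 each), were 17.2 points apart, with both FGR libraries below both controls. This value rests on few reads, 83 to 389 a library, and on different CpGs. Of the 84 CpGs that any library lists there, 0 were in all 4, 34 in both groups, 34 in FGR libraries alone and 16 in controls alone. The stretch from 1 kb before the start to the gene end, set after the profile had been seen, had low levels in both groups: 28.0% of 25 reads and 20.2% of 198 in FGR libraries, against 32.3% of 31 and 9.68% of 62 in controls. The rest of the span had 60.3% and 90.6% in FGR libraries against 80% and 91.4% in controls. The low stretch contributed 35 CpGs in the FGR libraries and 16 in the controls, and the rest 33 CpGs and 34. At the 34 CpGs listed in both groups, each weighted equally, the level was 58.9% in FGR libraries and 62.8% in controls, a difference of -3.95 points. How far the CpG lists account for the difference over all CpGs was not tested. The span also overlaps Cdc45, a DNA replication gene.

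The receptors for VEGF had the clearest unmethylated starts. Flt1, the receptor that binds VEGF-A tightly and limits its signal, lies on chromosome 5 from 147561604 to 147726438. From 1500 bp before to 500 bp after its start, 6.20% of 129 reads and 5.48% of 73 were methylated in FGR libraries, against 5.41% of 37 and 2.50% of 80 in controls. These starts were low in every library, and Wilson's 95% intervals for them ran from 0.688% to 17.7%. In the promoter printed above, 3 of 97 reads in FGR 1 and 0 of 20 in control 2 were methylated. Low windows continued 1.51 kb and 4.51 kb into the gene. In the second of these, from 147721001 to 147722000, FGR libraries had 5.77% and 18.4% and controls 14.9% and 0%. The last allows up to 7.14% with 42 reads, if these are independent. Beyond the start window the gene had 84.4% and 82.4% in FGR libraries against 83.5% and 83.7% in controls. Over the whole span the levels were 82.4% and 81.7% in FGR libraries against 82.6% and 82.4% in controls, less than 1 point apart between the means.

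Kdr, the main signalling receptor for VEGF-A, lies on chromosome 5 from 75932827 to 75979072. The 1 kb window at its start, from 75978001 to 75979000, had 2.36% of 212 reads and 0% of 55 in FGR libraries, against 0% of 30 and 0% of 33 in controls. If all reads were independent, the counts of 0 would allow levels of up to 5.45%, 10% and 9.09%. The window was the lowest of the 194 windows measured in all 4 libraries. In the printed promoter and the 50 bases after it, which lie within that window, all 56 reads of FGR 1 and all 30 reads of control 1 were unmethylated. These 30 reads are the same as those of the window, at 6 CpGs with 5 reads each. Reads at neighbouring CpGs can come from the same fragment, so the limits can be higher than given. The wider start window had 5.68% and 34.1% in FGR libraries against 32.9% and 20% in controls, and it held 43, 18, 11 and 9 listed CpGs in FGR libraries 1 and 2 and controls 1 and 2. The span had 71.3% and 78.2% in FGR libraries against 76.5% and 79.9% in controls, and the groups overlapped.

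The start windows of the angiopoietin receptors were more methylated as a whole. Tek, the receptor that angiopoietins bind, lies on chromosome 4 from 94739086 to 94874976. Its start had 68.2% and 57.0% in FGR libraries against 50% and 78.8% in controls. That mean hid a lower stretch in the 1 kb window holding the start, from 94739001 on. It had 4.55% of 22 reads and 25% of 44 in FGR libraries, against 2.94% of 34 in control 1. The window before it had 66.2% to 88.9% in the 4 libraries. The Tek window was chosen after its values were seen. Tie1, the related receptor that modulates Tek, lies on the same chromosome from 118471191 to 118489849, and its start had 51.0% and 84.9% in FGR libraries against 79.9% and 72.0% in controls. Of the 7 CpGs from 250 bases before to 50 after the Tie1 start, only 1 was listed, with 0 of 5 reads methylated in FGR 2. The level of this start therefore came almost wholly from CpGs outside that stretch. The span of Tek had 79.9% and 81.1% in FGR libraries against 77.9% and 80.7% in controls. The span of Tie1 had 81.0% and 82.2% in FGR libraries against 79.9% and 81.4% in controls. In both genes the groups overlapped.

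The pericyte genes differed among themselves. Pdgfrb, the receptor through which PDGF-B recruits pericytes, lies on chromosome 18 from 61045127 to 61085067 and was the most methylated of the 10 genes. Its span had 80.5% and 81.6% in FGR libraries against 85.4% and 83.8% in controls, with both FGR libraries below both controls. No window of it was low by the rule above, but its lower-numbered end was less methylated than the span. That end had 70.4% of 27 reads and 28.6% of 35 in FGR libraries, against 47.1% of 17 and 50% of 10 in controls. The 1 kb window from 61045001 on, which holds it, had 20.4% of 54 reads in FGR 2. The higher-numbered end had 94.7% of 94 reads and 77.3% of 66 in FGR libraries, against 100% of 9 and 66.7% of 24 in controls. Rgs5, a regulator of G protein signalling in pericytes, lies on chromosome 1 from 169655501 to 169695813. Its span had 75.1% and 72.2% in FGR libraries against 73.3% and 72.4% in controls, and the groups overlapped. The window at its start had 14.3% of 70 reads in FGR 2 and 18.9% of 37 in control 1. Vtn encodes vitronectin, a secreted adhesive protein that brain pericytes make, and lies on chromosome 11 from 78499120 to 78502325. Its span had 65.8% and 64.0% in FGR libraries against 56.4% and 61.4% in controls, with both FGR libraries above both controls. A low window at -1.62 kb from the start, from 78497001 to 78498000, had 0% of 15 and 0% of 49 reads in FGR libraries, against 1.32% of 76 and 8.82% of 102 in controls. It overlaps Sarm1, the neighbouring gene, so it cannot be assigned to Vtn.

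Pdgfrb and Csf1r, the receptor by which microglia survive, are neighbours on chromosome 18, with 20504 bp between them, and their methylation differed within a single stretch of DNA. The Pdgfrb gene had 79.6 ± 0.789% in FGR libraries and 84.1 ± 0.314% in controls, and the Csf1r gene 41.9 ± 7.54% in FGR libraries and 41.0 ± 9.59% in controls (SD, n = 2 each). The stretch between them had 73.4 ± 5.49% in FGR libraries and 71.4 ± 1.20% in controls, but it was not uniform. Its 1 kb window from 61098001 on had 2.63% of 38 reads in control 1. The next, from 61099001 on, had 6.25% of 32 and 5.36% of 56 in FGR libraries 1 and 2. Of the 1 kb windows measured in all 4 libraries, 0 of 10 in Pdgfrb and 4 of 6 in Csf1r had a mean level under 50%. This cutoff is not the rule for low windows given above. By that rule 0 of these 10 and 0 of these 6 were low, so it did not separate the genes here. Along the extended spans, among windows measured in at least 1 library of each group, 0 of 36 in Pdgfrb and 1 of 24 in Csf1r were low.

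**Figure D3:**
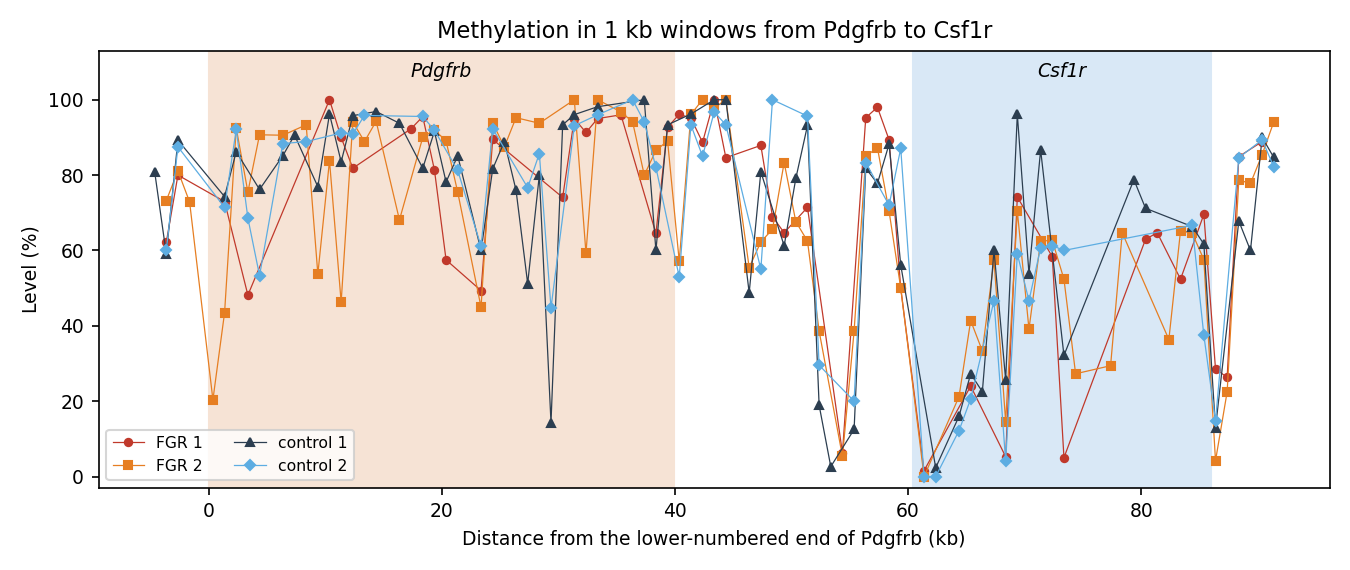
Methylation level (percent, y axis) in 1 kb windows from 5 kb before Pdgfrb to 5 kb after Csf1r, a microglial gene next to it, against the distance in kb from the lower-numbered end of Pdgfrb. Lines are the 4 libraries. The Pdgfrb gene has 79.1% and 80.2% in FGR libraries against 84.3% and 83.9% in controls, and the Csf1r gene 36.6% and 47.2% in FGR libraries against 47.8% and 34.2% in controls.

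**Figure D4:**
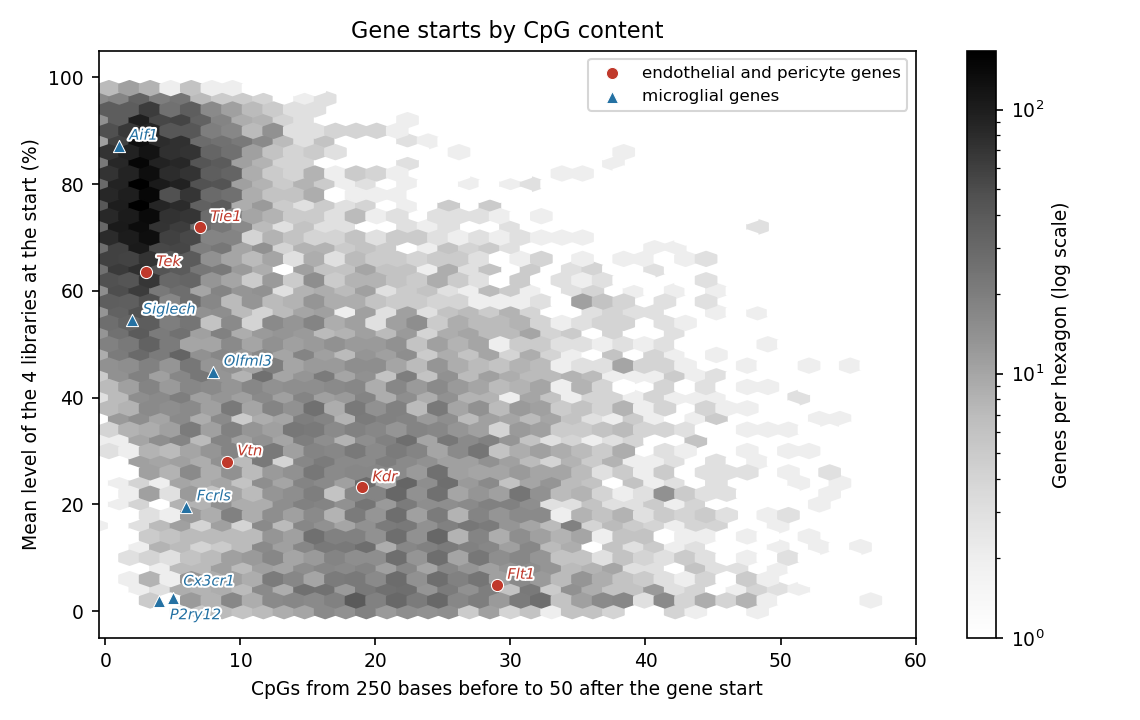
Mean methylation level of the 4 libraries at gene starts (percent, y axis) against the number of CpGs from 250 bases before to 50 after the start (x axis). Grey hexagons count all 18273 measured starts on a log scale, red circles are vascular genes and blue triangles microglial genes. Flt1 with 29 CpGs lies at 4.90%, as CpG-rich starts often do, while the 6 microglial starts, with 1 to 8 CpGs, range from 1.99% (P2ry12) to 87.2% (Aif1).

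Among the 5 vascular genes whose start was measured in every library, those with the most CpGs, Flt1, Kdr and Vtn, had the least methylated starts. The order was not strict, as Tie1 with 7 CpGs was above Tek with 3. Over all genes the median level at the start was 75% with 0 to 4 CpGs, 71.8% with 5 to 9, 41.9% with 10 to 14, 30.7% with 15 to 19 and 24.9% with 20 or more. Of the 5 vascular starts, Flt1 had 4.90%, Kdr 23.2%, Vtn 28.0%, Tek 63.5% and Tie1 71.9%. The starts of Cldn5, with 12 CpGs, and Rgs5, with 6, had means of 23.5% and 24.4%. They are not among the 5 because FGR 1 listed only 2 CpGs in each, so this pattern need not hold for all the vascular genes. Among starts with 20 or more CpGs 40.8% were below 20%, so the low start of Flt1 is not particular to it. The 6 microglial starts that were measured had a median of 32.2%, against 28.0% for the 5 vascular ones, and they spread widely. P2ry12 was at 1.99% with 4 CpGs, Cx3cr1 at 2.45% with 5 and Fcrls at 19.6% with 6, while Olfml3 was at 44.8% with 8, Siglech at 54.6% with 2 and Aif1 at 87.2% with 1. Over all genes 1.21% of starts with 0 to 4 CpGs and 7.17% of those with 5 to 9 were below 20%. The lowest starts in the wider lists were those of Nrp1, a VEGF co-receptor, with 1.34% and 0.905% in FGR libraries against 0% and 3.33% in controls, of Dll4, a Notch ligand of tip cells, and of Pdgfra. The highest were Acta2, which encodes smooth muscle actin, with 91.4% and 81.1% in FGR libraries against 78.4% and 77.1% in controls, Myl9 and Anpep.

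Between FGR and control libraries none of the 10 vascular genes passed the test. Methylated and unmethylated reads per span were compared with a quasi-binomial test across all 32609 genes, and a gene was called where its group means differed by 10 points or more at a p under 0.05 after Benjamini-Hochberg adjustment. It called 0% of all genes and 0 of the 10. At an unadjusted p under 0.05 it found 2 of the 10, against 6.12% of all genes, and limma on log ratios called 0 of all genes with 1990 at that level. These 2 were Cldn5 (unadjusted p = 0.00583, adjusted p = 0.810) and Pecam1 (unadjusted p = 0.0392, adjusted p = 0.812). Groups did not overlap in 6 of the 10 genes, against 36.1% of all genes. Of those 6, Pecam1, Cldn5, Flt1 and Pdgfrb had both FGR libraries below both controls and Cdh5 and Vtn both above. Flt1 is counted there by a very small margin, as FGR 1 and control 2 had the same level to the digits given above. Over all genes 25.8% lay below in this way and 10.4% above. The median difference was 0.17 points over the 10 genes and -1.11 points over all genes. With CpGs of at least 10 reads alone, the differences of Pecam1, Vtn and Pdgfrb were -22.2, 22.98 and -10.05 points, with none called. Neither the starts of the members, with 0% called of 28430 starts or gene ends, nor the 1 kb windows, with 0% called of 550538, gave a call. At an unadjusted p under 0.05 were 4.38% of the starts or ends, and none of the 8 starts or ends tested in the vascular genes. At CpGs listed in all 4 libraries 0% of 145706 windows were called.

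Where CpGs listed in both groups were compared, the difference was smaller in size in all the genes but Flt1. At these CpGs, each weighted equally, the 10 genes differed by between -3.95 points (Cldn5) and 1.284 points (Kdr), and 8 of them by less than 1 point. Over all genes the median was -0.16 points and the 5th to 95th percentile ran from -3.59 to 3.19 points. Pecam1 differed by -0.65 points over 335 CpGs and Vtn by 0.43 over 85, against -4.32 and 5.98 points over all listed CpGs. At CpGs listed in all 4 libraries 9 of the 10 genes could be tested, with 0% called of 29996 genes and 5.29% at an unadjusted p under 0.05. The difference was larger in size than over all listed CpGs in 5 of the 9 genes, with 4.79 against 0.91 points in Tie1, 2.63 against 1.18 in Tek, -2.28 against -0.48 in Flt1, -4.93 against -3.52 in Pdgfrb and 1.24 against 0.83 in Rgs5. None of the 9 reached an unadjusted p under 0.05, and groups did not overlap in 5 of the 9, against 33.3% of all genes. Pdgfrb had the largest difference of the 9, with 77.2% and 81.3% in FGR libraries against 83.8% and 84.4% in controls over 20 CpGs (adjusted p = 0.975, quasi-binomial test). Tie1 had 81.9% and 80% in FGR libraries against 78.3% and 74.0% in controls over 12 CpGs (adjusted p = 0.979).

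**Figure D5:**
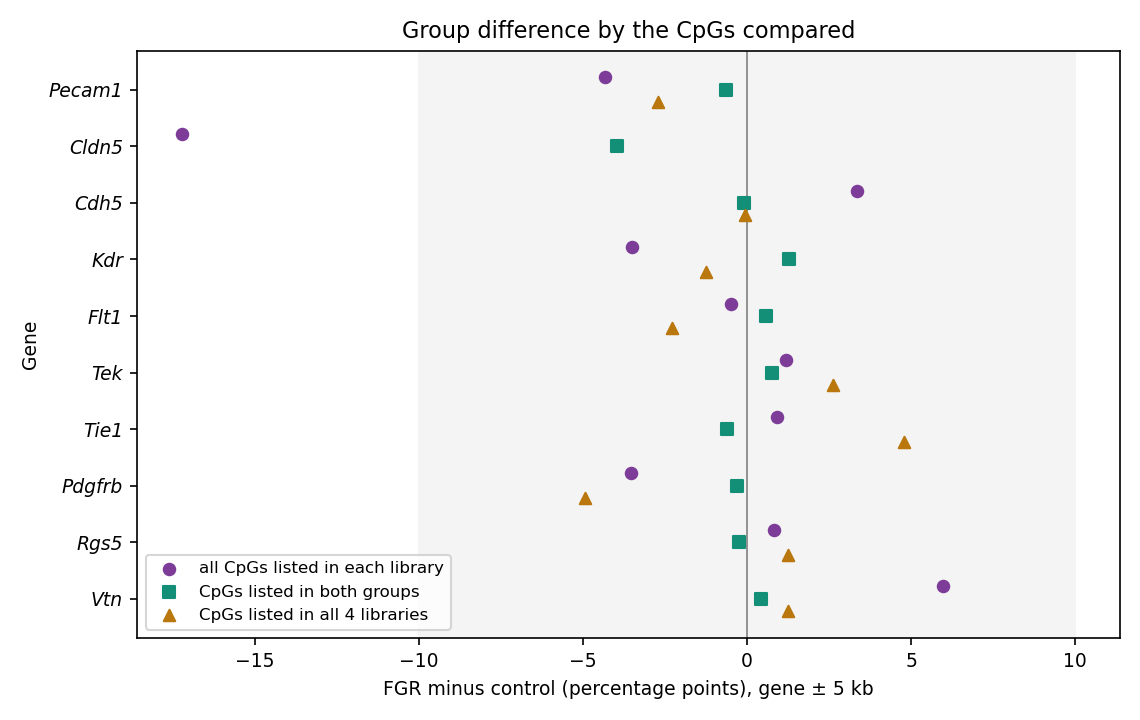
Difference in methylation level, FGR minus control, in percentage points (x axis) for each vascular gene with 5 kb on each side, by the CpGs compared: all listed in each library, those listed in both groups weighted equally, and those listed in all 4 libraries. The band spans 10 points either way, the size a call needed. Only Cldn5 lies outside it over all CpGs, at -17.2 points, and it has no point for CpGs listed in all 4 libraries.

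Along the genes 194 windows of 1 kb were measured in all 4 libraries, and 9 of them had an unadjusted p under 0.05, against 3.61% of all windows. Groups did not overlap in 64 of the 194, against 33% of all. The 3 of smallest p among those lower in FGR libraries lay in Pecam1, Cdh5 and Flt1. In Pecam1, from 106714001 to 106715000, the levels were 79.4% and 60.9% in FGR libraries against 95.9% and 98.7% in controls (adjusted p = 1, quasi-binomial test). In Cdh5, from 104129001 to 104130000, they were 69.2% and 52.2% in FGR libraries against 86.4% and 92.9% in controls. In Flt1, from 147682001 to 147683000, they were 13.3% and 18% in FGR libraries against 33.3% and 94.1% in controls, so the controls lay far apart from each other. The 3 of smallest p among those higher in FGR libraries lay in the same genes. In Cdh5, from 104146001 to 104147000, they were 57.7% and 59.1% in FGR libraries against 33.9% and 41.2% in controls. In Pecam1, from 106718001 to 106719000, every one of 16 and 27 reads in FGR libraries was methylated, against 88.5% and 85.2% in controls. Of these 6 windows only the higher one of Flt1, from 147570001 to 147571000, had at least 3 CpGs listed in all 4 libraries, where the difference was 2.32 points.

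The wider lists showed no call either. Among 41 endothelial genes 16 were higher and 25 lower in FGR libraries, 6 had an unadjusted p under 0.05, and 0 were called. Among 29 genes of pericytes and the vessel wall 11 were higher and 18 lower, 3 had an unadjusted p under 0.05, and 0 were called. The mean was lower in FGR libraries for 63.1% of all genes, 6.12% of all genes had an unadjusted p under 0.05, and 0% were called.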

How the data were processed

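The deposited tables list cytosines in CpG context with a read count (coverage) and the percent of reads that were C or T, per the file headers. Trim Galore 0.6.5, Bismark, methylKit 1.28.0 and mm10 are named in the submitters' processing notes; Bismark's version and all parameters are not given there. Methylated reads were recovered as coverage times percent, and both strands of a CpG were added up. CpGs in the top 0.1% of coverage of a library were dropped.

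Levels are methylated over all reads. Reads count once at every CpG they cover, and duplicates cannot be told apart, so Wilson intervals cover counting error only. Regions needed 3 CpGs and 10 reads in all 4 libraries. The quasi-binomial test had group as its single term, and limma 3.58.1 (squeezeVar, R 4.3.3) moderated the overdispersion along coverage, never below 1. The moderation was estimated on regions at 20% to 80% methylation, a choice made after a test on simulated data. Alternatives changed the span, window, filters, test and libraries. Starts came from the RefSeq promoter table, for 7 of the 10 genes; for the others both gene ends were used.

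Same-numbered replicates deviated together with a correlation of 0.0145 over gene spans. Counting noise and different CpG lists also lower such a correlation, so it cannot settle whether the numbers pair the samples. All 10 genes are named, with the lowest window of each where it matters, the 3 windows of smallest p in each direction, and the 3 lowest and 3 highest starts of the wider lists. The genes and lists were chosen with earlier results of these data known. One gene of the microglial list is not reported here.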

Additional observations from a re-analysis of the deposited data

How the results depend on the processing

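Of 341 alternative values of 33 genes, starts and windows, 23 changed direction and 0 passed the threshold; for none of these was the cause tested. With CpGs listed in both groups and weighted equally, an alternative chosen after seeing the data, the spans of Kdr (1.284 points), Flt1 (0.58), Cdh5 (-0.079), Tie1 (-0.60) and Rgs5 (-0.25) changed direction. With at least 10 reads per CpG the span of Tie1 changed direction (-0.24), and those of Pecam1 (-22.2), Vtn (22.98), Pdgfrb (-10.05), Kdr (-5.53) and Tek (1.88) moved by over 1.5 times in the same direction. Tie1 also changed direction at its start with 1000 bp on each side (2.79). Leaving out 1 library gave ranges that cross 0 for 2 spans over all CpGs, Rgs5 (-0.60 to 2.26) and Tek (-0.21 to 2.58). Those of Kdr (-6.97 to -0.03), Flt1 (-0.82 to -0.14), Tie1 (0.17 to 1.66) and Vtn (3.46 to 8.50) did not cross 0 but moved by over 1.5 times. Over shared CpGs the ranges crossing 0 were those of Cdh5 (-2.33 to 2.20), Kdr (-2.69 to 0.19), Rgs5 (-0.49 to 2.97) and Vtn (-11.5 to 14.03). At starts and ends they were those of Kdr (-20.7 to 7.72), Tek (-16.2 to 12.6), Tie1 (-24.9 to 8.99), Vtn (-29.7 to 3.95), and Cdh5 at its low end (-3.25 to 4.01) and high end (-3.40 to 9.84). The span of Cldn5 ran from -19.3 to -15.1 points without 1 library.

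The count of calls, 0 in each comparison, was also 0 without any 1 library. It was 1 for shared spans with no extension, 1 for starts at shared CpGs (an alternative added after seeing the data), 40 for windows with at least 1 CpG and 5 reads, and 1 for shared windows of 2000 bp. With no CpGs left out for high coverage it was 5 for shared spans, 3 for windows and 7 for shared windows. With the replicate block it was 2 for shared windows and 0 for the other comparisons, and the block changed no call of the 33 results. None of these calls was in a vascular gene. The median level of the vascular genes was 81.7% at shared CpGs, against 67.1% for microglial genes and 79.9% for all genes. Depth limits Cldn5 most, with 83 reads in 1 library.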

Other observations

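Of the wider lists, 6 of 41 endothelial genes and 7 of 29 genes of pericytes and the vessel wall had spans below the 10th percentile of all genes, 58.8%. They were named after their values were seen. The 6 endothelial genes were Foxc1, Sox17, Foxq1, Sox18, Sox7 and Dll4, with means over the 4 libraries of 30.1%, 30.3%, 34.8%, 44.4%, 51.4% and 52.3%. All but Dll4, a Notch ligand, encode transcription factors. Other transcription factor genes of the same list were higher, among them Erg at 76.9% and Fli1 at 68.3%. The 7 genes of pericytes and the vessel wall were Zic1, Foxf2, Cd248, Tbx18, Kcnj8, Col1a1 and Mcam, with 10.1%, 22.8%, 39.1%, 43.3%, 51.4%, 53.9% and 57.2%. Zic1 had 10.5 ± 0.931% in FGR libraries and 9.59 ± 3.52% in controls, and Foxf2 had 19.1 ± 10.6% in FGR libraries and 26.5 ± 2.44% in controls (SD, n = 2 each). None of these 13 genes was called between the groups.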
